A study of Mus musculus with 8 samples.

Results

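The Hox genes of mouse lie in 4 chromosomal clusters, HoxA to HoxD, and encode transcription factors that bind DNA through a homeodomain. They were followed here in a fibroblast line and a melanoma line that had been made to carry PGC7. Members were taken as every probe set whose only annotated gene symbol was that of a Hox cluster gene, which gave 48 of the 45101 probe sets on the array and 33 of its 18193 genes. They are 33 of the 39 Hox cluster genes in the RefSeq annotation of mouse assembly GRCm38.p6. The others were not analysed as members, and some were read only by probe sets shared with a neighbour. HoxA had 16 probe sets for 9 genes, HoxB 11 for 9, HoxC 11 for 7 and HoxD 10 for 8.

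The study measured total RNA on Affymetrix 3' expression arrays, with 1 array for each of 8 cultures. B16F10 cells come from a mouse melanoma and NIH3T3 cells are fibroblasts from mouse embryos, and both were grown in serum-containing medium. In each line 3 cultures carried a virus with PGC7 (Stella, encoded by Dppa3), a protein of oocytes and germ cells that shields maternal DNA from demethylation in the zygote. The groups were NIH3T3 PGC7 (clone 1, clone 2 and an uncloned mixture), NIH3T3 control (n = 1), B16F10 PGC7 (clones 1 to 3) and B16F10 control (n = 1). These were taken from the sample titles, because the genotype label of every infected sample read PGC8 and described cells from before cloning. The labels do not say if an empty virus was given to the controls, nor when each array was hybridized, so the line cannot be told apart from any batch of arrays. Each control is a lone array with no spread of its own, and whether the clones of a line came from separate infections is not stated, so p-values cover only the spread among these arrays, which may be technical.

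In vertebrate embryos the order of Hox genes along a cluster follows the order of their domains along the body axis. Genes with low paralogue numbers act in the hindbrain, pharyngeal arches and neck, those with middle numbers in the trunk, and those with high numbers in the lumbar, tail, limb and genital regions. Cells of adult tissues and cultured fibroblasts often keep a Hox pattern that goes with the body region they came from. Trithorax proteins keep active Hox clusters on, Polycomb proteins keep silent ones off, and retinoic acid induces the genes at the low-numbered end.

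The start regions of 6 members are printed because the values turn on them. Hoxa3, Hoxa5 and Hoxa9 were lower in the NIH3T3 arrays labelled PGC7, Hoxa7 was higher in the B16F10 arrays labelled PGC7, and Hoxd8 and Hoxd13 differed between the lines in opposite directions. Each sequence runs from 250 bases before to 50 bases after a start annotated by RefSeq, 5' to 3' on the gene's strand, and capitals mark the CG pairs, the sites at which mammalian DNA is methylated. On assembly GRCm38.p6 the windows are chr6:52213018-52213317 (minus strand) for Hoxa3, chr6:52204538-52204837 (minus) for Hoxa5, chr6:52227321-52227620 (minus) for Hoxa9, chr6:52218524-52218823 (minus) for Hoxa7, chr2:74704365-74704664 (plus) for Hoxd8 and chr2:74667975-74668274 (plus) for Hoxd13.
Hoxa3: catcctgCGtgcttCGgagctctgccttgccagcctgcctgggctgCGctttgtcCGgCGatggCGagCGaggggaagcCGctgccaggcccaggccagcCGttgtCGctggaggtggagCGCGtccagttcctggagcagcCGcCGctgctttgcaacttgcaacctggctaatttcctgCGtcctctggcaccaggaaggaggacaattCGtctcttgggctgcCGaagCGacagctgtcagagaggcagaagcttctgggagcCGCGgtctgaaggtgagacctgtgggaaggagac
Hoxa5: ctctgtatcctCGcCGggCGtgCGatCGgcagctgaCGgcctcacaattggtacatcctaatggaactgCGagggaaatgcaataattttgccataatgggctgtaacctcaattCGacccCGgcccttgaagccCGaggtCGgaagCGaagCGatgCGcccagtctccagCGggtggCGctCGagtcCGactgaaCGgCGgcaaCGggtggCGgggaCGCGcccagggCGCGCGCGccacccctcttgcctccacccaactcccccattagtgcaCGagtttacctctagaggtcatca
Hoxa9: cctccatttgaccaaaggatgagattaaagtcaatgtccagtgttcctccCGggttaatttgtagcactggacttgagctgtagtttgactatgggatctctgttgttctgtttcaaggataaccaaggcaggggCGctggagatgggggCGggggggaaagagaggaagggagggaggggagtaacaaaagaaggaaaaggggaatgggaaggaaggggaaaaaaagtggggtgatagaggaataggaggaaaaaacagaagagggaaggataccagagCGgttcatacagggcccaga
Hoxa7: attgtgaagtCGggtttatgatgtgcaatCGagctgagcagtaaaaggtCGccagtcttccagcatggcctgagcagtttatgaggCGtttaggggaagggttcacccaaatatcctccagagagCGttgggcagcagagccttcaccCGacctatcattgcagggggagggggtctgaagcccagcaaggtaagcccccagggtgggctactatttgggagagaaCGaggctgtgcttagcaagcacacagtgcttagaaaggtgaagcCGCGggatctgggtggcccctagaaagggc
Hoxd8: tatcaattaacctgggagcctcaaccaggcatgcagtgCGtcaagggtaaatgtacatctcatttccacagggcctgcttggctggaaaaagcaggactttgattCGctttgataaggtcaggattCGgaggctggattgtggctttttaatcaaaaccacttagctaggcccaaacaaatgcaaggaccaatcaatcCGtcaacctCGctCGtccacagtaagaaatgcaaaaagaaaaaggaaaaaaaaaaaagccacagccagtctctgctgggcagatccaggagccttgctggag
Hoxd13: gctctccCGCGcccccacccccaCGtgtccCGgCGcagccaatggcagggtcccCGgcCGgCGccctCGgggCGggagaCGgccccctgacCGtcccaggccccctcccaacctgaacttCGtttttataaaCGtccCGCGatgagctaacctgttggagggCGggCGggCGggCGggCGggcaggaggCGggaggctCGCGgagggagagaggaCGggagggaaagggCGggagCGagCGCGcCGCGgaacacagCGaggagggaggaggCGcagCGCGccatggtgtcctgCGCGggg

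The 6 windows held 20 CG pairs in Hoxa3, 29 in Hoxa5, 4 in Hoxa9, 9 in Hoxa7, 6 in Hoxd8 and 37 in Hoxd13, so CG-rich and CG-poor starts were found on both chromosomes. The Hoxa3 start in this annotation lies between those of Hoxa5 and Hoxa7. RefSeq start regions were matched for 19 of the 33 member genes, with 21 sequences in all, and these held a median of 15 CG pairs (range 4 to 45), against a median of 7 over all 32851 start regions of 300 bases. The letters TGATNNAT, the core of sites bound by Hox proteins together with Pbx proteins, were found on either strand in 3 of the 21 member sequences (14.3%) and in 8.85% of all start regions. TAATTA, a core bound by many homeodomains, was in 2 of the 21 (9.52%) and in 5.29% of all. Both of the member sequences with TAATTA were start regions of the same gene, Hoxd11. The 2 motifs can overlap, and neither was in the 6 printed windows. DNA methylation was not measured in these arrays.

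Signals are given after each array was scaled to the same trimmed mean of 500, in arbitrary units, and differences on the scale of log2(signal + 9), which understates the change of low signals. The arrays' own level touched the comparisons: the median scaled signal over all probe sets was 57.1 to 60.6 on the NIH3T3 arrays labelled PGC7, 71.2 on the NIH3T3 control, 37.0 to 39.5 on the B16F10 arrays labelled PGC7 and 35.9 on the B16F10 control. The labels went with the lines: all 11 measured fibroblast markers were higher in NIH3T3, and 9 of the 10 tested melanocyte markers were higher in B16F10. The Dppa3 probe set 1424295_at had signals of 29.7 in clone 1, 55.4 in clone 2 and 101 in the uncloned culture of NIH3T3 PGC7, against 69.8 in the NIH3T3 control, so clones 1 and 2 were below their control and against their label. It had 70.0, 117 and 71.0 in B16F10 PGC7 clones 1 to 3, against 23.5 in the B16F10 control. The labels do not say whether this probe set lies in the stretch that the virus carried, so these arrays are called labelled PGC7 below. Among 29 genes of other tissues that neither line is known for, the 90th percentile of the signal was 63.4 to 94.1 on the NIH3T3 arrays and 66.2 to 139 on the B16F10 arrays. These other-tissue genes serve below as a guide to low signals, although not all of them were low: Mbp had 8760 to 15593 in B16F10 and Cela1 1002 to 2004 in NIH3T3, and 2 to 4 of the 29 reached 100 on each array. The list's median was 12.1 to 30.4 on the NIH3T3 arrays and 8.69 to 13.1 on the B16F10 arrays.

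The Hox genes fell into those with a clear signal in at least 1 line and those with a low signal throughout. Of the 33 genes, 11 had a probe set that reached a signal of 200 on some array: Hoxa2, Hoxa3, Hoxa5, Hoxa7, Hoxa9, Hoxa10, Hoxc4, Hoxc6, Hoxd8, Hoxd9 and Hoxd13. None of these 11 belonged to HoxB. A further 5 genes, Hoxa4, Hoxa11, Hoxb3, Hoxb6 and Hoxc5, reached 100 but not 200. The remaining 17 stayed under 100 on all 8 arrays, 16 of them below the filter on low signals, which required a mean log2 value at or above the median of all values (signal 49.3) in at least 1 line. The exception was Hoxd3, a neck-level gene that passed the filter with 59.4, 61.6 and 49.4 in NIH3T3 clone 1, clone 2 and the uncloned culture, 48.1 in the NIH3T3 control, and 34.0, 55.5, 43.7 and 47.0 in the B16F10 clones 1 to 3 and control.

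In all, 23 probe sets of 17 genes passed the filter and 25 probe sets did not. The 16 genes with no probe set that passed were Hoxa13, Hoxb1, Hoxb2, Hoxb4, Hoxb5, Hoxb7, Hoxb9, Hoxb13, Hoxc8, Hoxc9, Hoxc10, Hoxc13, Hoxd1, Hoxd10, Hoxd11 and Hoxd12. Their highest signal on any array ran between 9.83 for Hoxd12 and 61.1 for Hoxa13. For a probe set that passed through a single line, the filter mostly sets the direction of the difference between the lines, though not its size. The comparison of the lines was therefore also made with no filter over all 48.

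**Figure D1:**
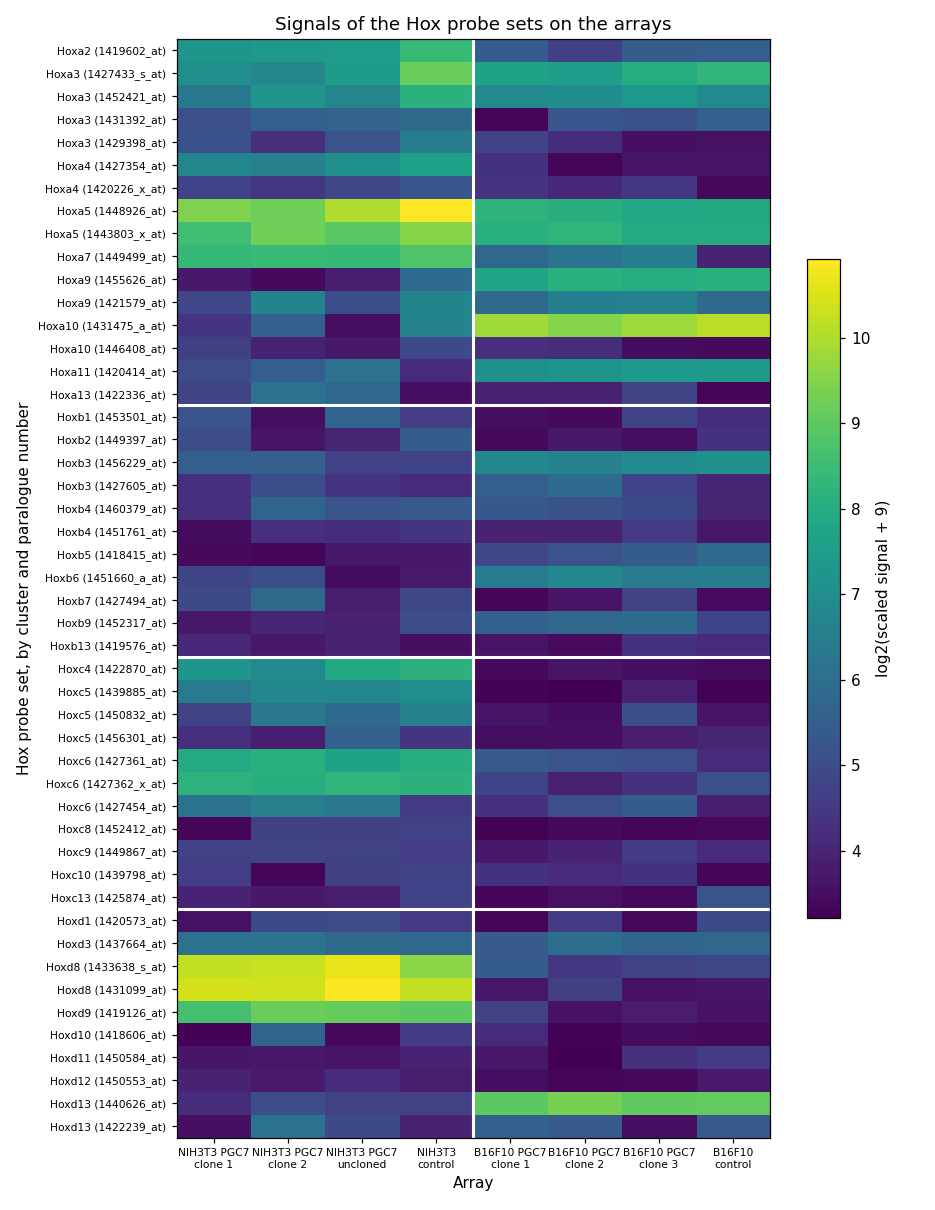
Heat map of log2(scaled signal + 9) for the 48 Hox probe sets (rows, by cluster and paralogue number, white lines between clusters) on the 8 arrays (columns, NIH3T3 left and B16F10 right of the white line). Bright rows in NIH3T3 include Hoxa5, Hoxd8 and Hoxd9, those in B16F10 include Hoxa10 and Hoxd13, and HoxB has no bright row.

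NIH3T3 and B16F10 held different Hox genes. NIH3T3 had the higher signal for Hoxa2, Hoxa4, Hoxa5, Hoxa7, Hoxc4, Hoxc5, Hoxc6, Hoxd8 and Hoxd9, and B16F10 had the higher signal for Hoxa9, Hoxa10, Hoxa11, Hoxb3, Hoxb6 and Hoxd13. Of the 23 probe sets that passed, 13 were higher and 6 lower in NIH3T3 than in B16F10 at an adjusted p under 0.05 (limma's moderated test across all 25236 tested probe sets, Benjamini-Hochberg). Of all tested probe sets, 71.5% were called in this comparison, 42% higher and 29.6% lower in NIH3T3, so the share of Hox probe sets called was close to the background. With the values as deposited, in which the NIH3T3 arrays are dimmer, the split was 11 higher and 12 lower of 24 tested. In that setting 82.9% of all tested probe sets were called, and the median difference over all of them was -1.30. With no filter, 16 of the 48 were higher and 7 lower in NIH3T3, against 43.2% of all probe sets called either way, 26.8% higher and 16.4% lower. The 4 arrays of NIH3T3 and the 4 of B16F10 did not overlap for 21 of the 48 probe sets, 14 higher in NIH3T3 and 7 higher in B16F10, against 41.5% of all probe sets, 25.9% and 15.6% in these directions. The median difference over all 48 was 0.66, against 0.31 over all probe sets with no filter.

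Among the called HoxA genes the direction turned between the middle and the high paralogue numbers. The values of NIH3T3 PGC7 are given in the order clone 1, clone 2 and uncloned, and those of B16F10 PGC7 as clones 1 to 3. Hoxa2, which sets the identity of the second pharyngeal arch, had 146, 155 and 170 in NIH3T3 PGC7 and 339 in its control, and 34.9, 16.5 and 36.1 in B16F10 PGC7 and 37.5 in its control. The lines did not overlap, and the difference was 2.53 ± 0.29 (log2, SE, adjusted p = 7.44e-05). Hoxa4, a neck and upper trunk gene, had 100, 86.1 and 127 in NIH3T3 PGC7 and 185 in its control, and 11.2, 1.28 and 3.65 in B16F10 PGC7 and 3.61 in its control. Its 4 B16F10 values were under the median of the other-tissue genes or close to it (difference 3.48 ± 0.36, adjusted p = 4.08e-05).

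Hoxa5, required for lung and upper trunk patterning, was read by a pair of probe sets. Probe set 1448926_at had 681, 590 and 1015 in NIH3T3 PGC7 and 1940 in its control, and 292, 263 and 222 in B16F10 PGC7 and 232 in its control. All NIH3T3 arrays were above all B16F10 arrays (difference 2.25 ± 0.21, adjusted p = 2.09e-05), and Hoxa5 was a gene with a signal over 200 in both lines. Probe set 1443803_x_at, whose suffix marks probes that can pair with other transcripts, had 373, 589 and 489 in NIH3T3 PGC7 and 722 in its control, and 269, 296 and 236 in B16F10 PGC7 and 237 in its control. Its difference of 1.19 ± 0.19 (adjusted p = 0.000551) turned to -0.32 (adjusted p = 0.22) with the values as deposited.

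Hoxa7, a trunk gene, had 314, 343 and 327 in NIH3T3 PGC7 and 441 in its control, and 47.6, 63.3 and 82.0 in B16F10 PGC7 and 6.42 in its control. NIH3T3 was higher by 3.55 ± 0.24 (adjusted p = 2.86e-06). Hoxa3, which is needed for the thymus, the parathyroid and the third pharyngeal arch, was the HoxA gene over 200 that was not called between the lines. Its probe set 1427433_s_at had 122, 100 and 163 in NIH3T3 PGC7 and 562 in its control, and 193, 176 and 248 in B16F10 PGC7 and 303 in its control (difference 0.11 ± 0.23, adjusted p = 0.683). The NIH3T3 control lay above the whole range of B16F10, and the NIH3T3 arrays labelled PGC7 lay below it. With no filter its dim probe set 1429398_at was called higher in NIH3T3 (difference 1.78 ± 0.45, adjusted p = 0.0116).

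Hoxa9, a gene of posterior patterning and of blood progenitors, was lower in NIH3T3 by probe set 1455626_at. It had 4.26, 1.56 and 5.63 in NIH3T3 PGC7 and 51.3 in its control, and 209, 271 and 246 in B16F10 PGC7 and 272 in its control (difference -3.26 ± 0.27, adjusted p = 1.02e-05). The other Hoxa9 probe set, 1421579_at, had 19.8, 94.0 and 24.2 in NIH3T3 PGC7 and 95.3 in its control, and 49.8, 84.0 and 87.4 in B16F10 PGC7 and 48.9 in its control. Its lines overlapped and its difference was 0.02 ± 0.50 (adjusted p = 0.971), so the Hoxa9 probe sets disagreed. Hoxa10, known for lumbar and uterine patterning, had 11.7, 40.1 and 2.65 in NIH3T3 PGC7 and 92.9 in its control, and 900, 717 and 889 in B16F10 PGC7 and 1104 in its control (probe set 1431475_a_at, difference -4.33 ± 0.46, adjusted p = 4.22e-05). Its dim probe set 1446408_at, at most 21.5, did not pass, its lines overlapped, and with no filter it was not called (difference 0.82 ± 0.37, adjusted p = 0.104). Hoxa11, a gene of the forearm and the uterus, had 22.3, 36.8 and 60.04 in NIH3T3 PGC7 and 8.70 in its control, and 127, 138 and 157 in B16F10 PGC7 and 159 in its control. It was lower in NIH3T3 on every array (difference -2.47 ± 0.33, adjusted p = 0.000189).

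HoxB had a low signal in both lines. The 2 of its 11 probe sets that passed the filter were both lower in NIH3T3. Both passed through B16F10 alone, so the filter mostly set this direction. Hoxb3, active in the hindbrain and pharyngeal arches, had 36.7, 38.4 and 17.0 in NIH3T3 PGC7 and 18.3 in its control, and 104, 89.9 and 112 in B16F10 PGC7 and 131 in its control (probe set 1456229_at, difference -1.94 ± 0.32, adjusted p = 0.000638). Its other probe set, 1427605_at, did not pass, its lines overlapped, and with no filter it was not called (difference -0.32 ± 0.43, adjusted p = 0.592). Hoxb6, a trunk gene, had 19.2, 24.6 and 2.15 in NIH3T3 PGC7 and 4.62 in its control, and 72.8, 101 and 73.2 in B16F10 PGC7 and 80.9 in its control (difference -2.38 ± 0.46, adjusted p = 0.00149). With no filter Hoxb5 was also called lower in NIH3T3, at 0.978 to 4.37 over the 4 NIH3T3 arrays and 19.8 to 48.4 over the 4 B16F10 arrays (difference -1.89 ± 0.33, adjusted p = 0.00164).

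All 5 HoxC probe sets that passed were higher in NIH3T3, and they read the neighbouring genes Hoxc4, Hoxc5 and Hoxc6. They passed through NIH3T3 alone, so the filter mostly set this direction. Hoxc4 had 146, 112 and 231 in NIH3T3 PGC7 and 281 in its control, and 1.67, 3.31 and 2.61 in B16F10 PGC7 and 1.95 in its control (difference 4.28 ± 0.34, adjusted p = 8.21e-06). Hoxc5 had 73.3, 102 and 99.9 in NIH3T3 PGC7 and 123 in its control, and 0.762, 0.283 and 6.17 in B16F10 PGC7 and 0.649 in its control (probe set 1439885_at, difference 3.47 ± 0.36, adjusted p = 3.78e-05). These are genes of the neck and upper trunk, and neither of these probe sets was above the median of the other-tissue genes in B16F10. The Hoxc5 probe set 1450832_at, which did not pass the filter, had 24.5 in B16F10 clone 3, where that median was 13.1. With no filter it was called higher in NIH3T3 (difference 2.26 ± 0.58, adjusted p = 0.012, limma). The third Hoxc5 probe set, 1456301_at, was not (0.68 ± 0.45, adjusted p = 0.26).

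Hoxc6, an upper trunk gene, was read by 3 probe sets. Probe set 1427361_at had 234, 270 and 196 in NIH3T3 PGC7 and 263 in its control, and 33.6, 27.5 and 25.0 in B16F10 PGC7 and 8.38 in its control (difference 3.32 ± 0.25, adjusted p = 5.57e-06). Probe set 1427362_x_at had 287, 256 and 307 in NIH3T3 PGC7 and 282 in its control, and 18.4, 5.86 and 10.97 in B16F10 PGC7 and 24.9 in its control (difference 3.48 ± 0.29, adjusted p = 1.11e-05). The groups stood apart in both. Probe set 1427454_at had 63.9, 86.4 and 70.4 in NIH3T3 PGC7 and 15.02 in its control, and 11.04, 25.4 and 35.3 in B16F10 PGC7 and 5.54 in its control. Here the NIH3T3 control fell within the B16F10 range, and the difference of 1.06 ± 0.38 (adjusted p = 0.0336) was not called without NIH3T3 clone 2 (adjusted p = 0.0612) or with no filter (adjusted p = 0.0739). Hoxc8, of the thoracic region, was called higher in NIH3T3 with no filter (difference 1.10 ± 0.38, adjusted p = 0.0459), at signals of at most 17.3.

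HoxD held strong differences of both directions. Hoxd8, a trunk gene, had 1385, 1318 and 1867 in NIH3T3 PGC7 and 1180 in its control, and 4.13, 16.5 and 2.71 in B16F10 PGC7 and 3.72 in its control (probe set 1431099_at, difference 6.57 ± 0.32, adjusted p = 5.31e-07). Its other probe set, 1433638_s_at, had 1178, 1229 and 1631 in NIH3T3 PGC7 and 753 in its control, and 35.4, 13.001 and 17.9 in B16F10 PGC7 and 20.9 in its control (difference 5.08 ± 0.29, adjusted p = 1.09e-06). Both showed a strong signal on every NIH3T3 array and none above the 90th percentile of the other-tissue genes in B16F10. Hoxd9, a gene of the lower trunk and upper limb, had 397, 580 and 540 in NIH3T3 PGC7 and 494 in its control, and 17.6, 2.95 and 4.95 in B16F10 PGC7 and 3.12 in its control (difference 5.16 ± 0.35, adjusted p = 3.06e-06).

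Hoxd13, which patterns the digits and external genitalia, ran the other way. Probe set 1440626_at had 9.68, 23.8 and 17.4 in NIH3T3 PGC7 and 17.0 in its control, and 498, 648 and 514 in B16F10 PGC7 and 528 in its control (difference -4.42 ± 0.27, adjusted p = 1.75e-06). The second Hoxd13 probe set, 1422239_at, stayed between 2.30 and 59.8 on all arrays and did not pass the filter. Hoxd10, Hoxd11 and Hoxd12, which lie between Hoxd9 and Hoxd13 in the cluster, stayed at or under 43.5, 15.1 and 9.83, so Hoxd13 had a signal in B16F10 with no signal over the 90th percentile of the other-tissue genes from these neighbours. The start region of Hoxd8 printed above has 6 CG pairs and that of Hoxd13 has 37.

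**Figure D2:**
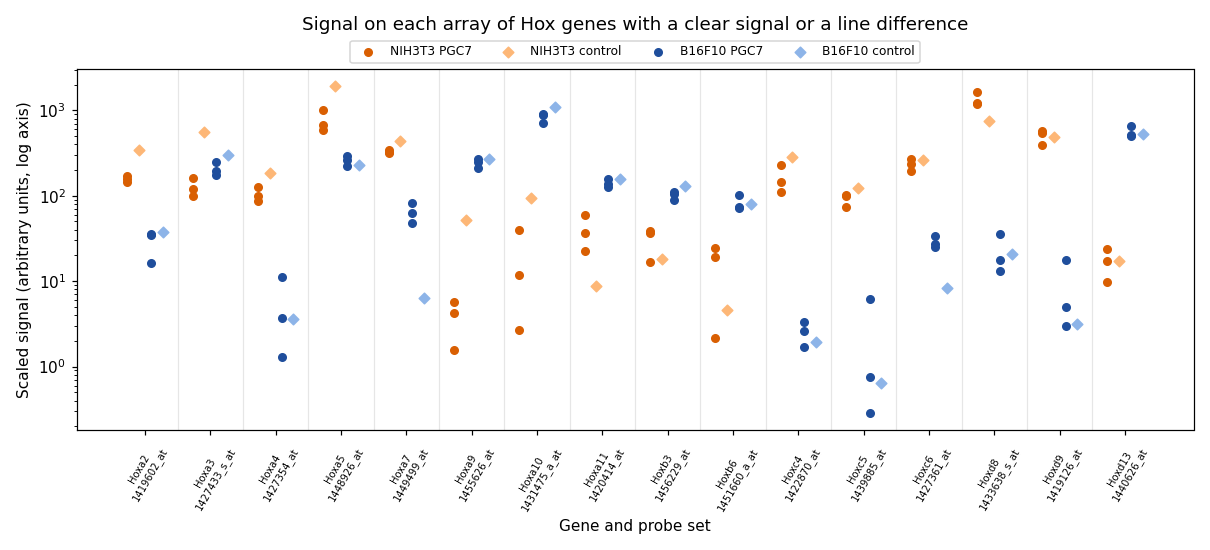
Scaled signal (log axis) on each array for Hox genes that reached 200 on some array or were called between the lines, each by its brightest probe set. Circles are arrays labelled PGC7 (n = 3 for each line) and diamonds the lone controls. Hoxc4, Hoxd8 and Hoxd9 stand apart with NIH3T3 high, Hoxa10 and Hoxd13 with B16F10 high.

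By position in the clusters, calls are given by paralogue group, and a gene that did not pass the filter could not be called. Many genes passed through a single line, which mostly set their direction, so these counts are no test of a pattern by position. Of the 12 measured genes of paralogue groups 4 to 8, 8 passed the filter, 7 were called higher in NIH3T3 and 1, Hoxb6, higher in B16F10. Of 14 genes of groups 9 to 13, 5 passed, 1 was called higher in NIH3T3, Hoxd9, and 4 higher in B16F10, Hoxa9, Hoxa10, Hoxa11 and Hoxd13. In groups 1 to 3, with 7 genes of which 4 passed, Hoxa2 was higher in NIH3T3 and Hoxb3 in B16F10. Over all tested probe sets 42% were called higher and 29.6% lower in NIH3T3, and the classes were not tested against each other.

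**Figure D3:**
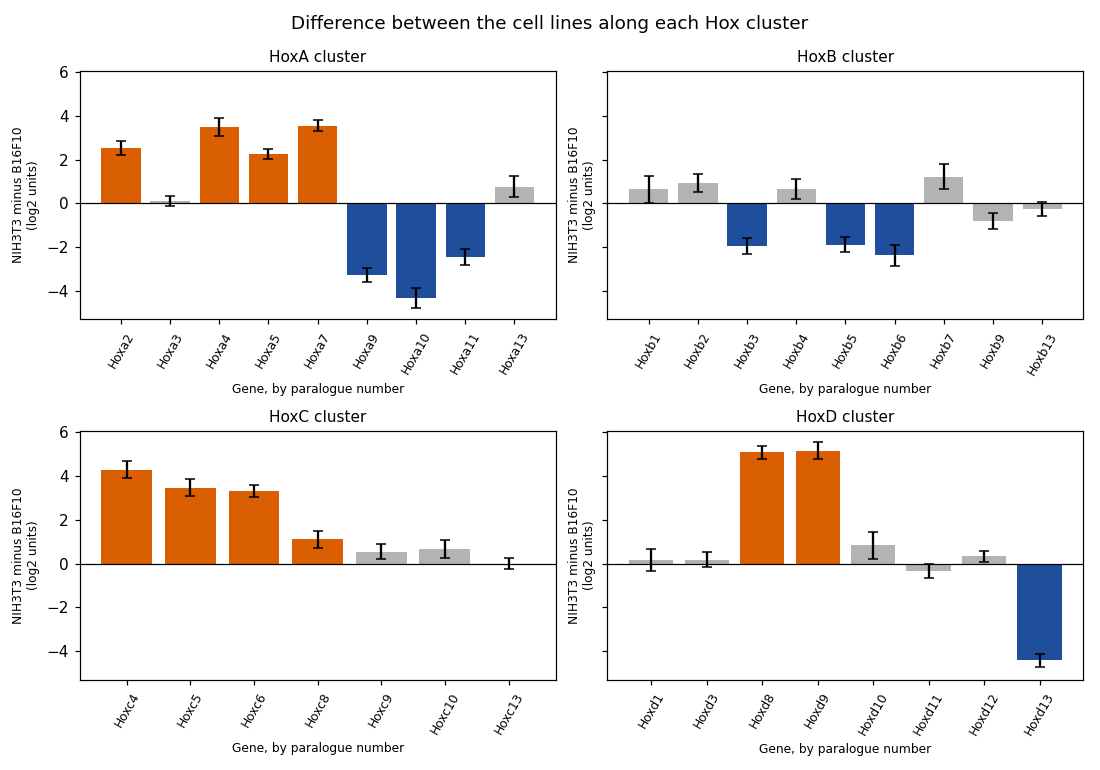
Difference between NIH3T3 and B16F10 (log2 units, bars, with SE) for the brightest probe set of each of the 33 Hox genes, by cluster, from the fit with no filter on low signals. Orange bars were called higher and blue bars lower in NIH3T3, and grey bars were not called. Among the called bars, HoxA turns from positive to negative between Hoxa7 and Hoxa9, and HoxD between Hoxd9 and Hoxd13. The grey bar of Hoxa13 is positive (0.76), and those of Hoxd10 (0.84), Hoxd11 (-0.35) and Hoxd12 (0.33) differ in sign.

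In NIH3T3 labelled PGC7, the HoxA genes Hoxa3, Hoxa5 and Hoxa9 were called lower, and no Hox gene was called higher. Of the 23 probe sets that passed, 4 fell and 0 rose at an adjusted p under 0.05 (limma, adjusted over all tested probe sets), and 8 had an unadjusted p under 0.05. Among these 8, Hoxa11 (1.39 ± 0.47) and Hoxc6 1427454_at (1.77 ± 0.54) were higher than the control. Of all tested probe sets 12.8% were called, 6.47% higher and 6.32% lower. With no filter 3 of the 48 fell and 0 rose, against 5.94% of all probe sets called, 2.8% higher and 3.14% lower. All 4 that fell lay in HoxA, and HoxB, HoxC and HoxD had 0 called in limma's test, with 0, 1 and 0 at an unadjusted p under 0.05. The median change was -0.40 over the 23 and -0.34 over all 48, against -0.07 over all tested probe sets and -0.05 over all probe sets with no filter. Each of these changes is measured against the same lone control array.

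Hoxa3 had the call kept under all 16 alternatives to the processing. Its probe set 1427433_s_at averaged 128 ± 31.9 in NIH3T3 labelled PGC7 (SD, n = 3), against 562 in the control, a change of -2.08 ± 0.32 (log2, SE, adjusted p = 0.00505, range over the alternatives 0.000896 to 0.0423). All 3 values, at 122, 100 and 163, were below the control. The second probe set, 1452421_at, had 72.0, 138 and 96.4, against 275 in the control, a change of -1.40 ± 0.39 (adjusted p = 0.0497). That call was kept in 3 of its 15 alternatives, with an adjusted p of up to 0.156, and was lost without NIH3T3 clone 1 or without any single B16F10 clone. The other Hoxa3 probe sets, 1431392_at and 1429398_at, did not pass the filter and had 25.4, 39.0 and 41.8 against 50.5, and 26.6, 10.4 and 27.6 against 78.5. All 4 Hoxa3 probe sets were therefore lower on every array labelled PGC7 than on the control.

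Hoxa5 probe set 1448926_at averaged 762 ± 224 in NIH3T3 labelled PGC7, against 1940 in the control, a change of -1.38 ± 0.30 (adjusted p = 0.0205, range 0.00106 to 0.0811). Its call was lost without NIH3T3 clone 1 (adjusted p = 0.0505), with the NIH3T3 arrays alone (adjusted p = 0.0811) and with no intensity trend (adjusted p = 0.055). The probe set 1443803_x_at of the same gene averaged 484 ± 108, against 722 in the control (change -0.59 ± 0.27, adjusted p = 0.192), lower on each array but not called. Hoxa9 probe set 1455626_at averaged 3.82 ± 2.07, against 51.3 in the control, a change of -2.25 ± 0.38 (adjusted p = 0.00757, range 0.00296 to 0.0808). The call was lost with the NIH3T3 arrays alone, and the control value itself lay under the 90th percentile of the other-tissue genes. The other Hoxa9 probe set, 1421579_at, had 19.8, 94.0 and 24.2 on the arrays labelled PGC7, against 95.3 in the control. Its change of -1.17 ± 0.70 was not called (adjusted p = 0.314), and clone 2 was close to the control. The start region printed for Hoxa5 has 29 CG pairs and that for Hoxa9 has 4.

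Other HoxA genes were lower than the control on each NIH3T3 array labelled PGC7 without passing the test. Hoxa10 averaged 18.2 ± 19.6, against 92.9 in the control (change -2.16 ± 0.64, adjusted p = 0.0615). Hoxa2 averaged 157 ± 12.1, against 339 in the control (change -1.07 ± 0.41, adjusted p = 0.128). Hoxa4 averaged 104 ± 20.6, against 185 (change -0.79 ± 0.52, adjusted p = 0.359), and Hoxa7 328 ± 14.1, against 441 (change -0.42 ± 0.34, adjusted p = 0.459). The high-numbered end differed: Hoxa11 averaged 39.7 ± 19.0, against 8.70 in the control (change 1.39 ± 0.47, adjusted p = 0.0912). Hoxa13, which did not pass the filter, had 18.8, 61.1 and 48.0, against 2.40 in the control.

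Counted over the cluster, 14 of the 16 HoxA probe sets were below the control on all 3 NIH3T3 arrays labelled PGC7, and the other 2, Hoxa11 and Hoxa13, were above it on all 3. Over all probe sets, 34.3% were below the control on all 3 and 26.4% above. By gene, 7 of the 9 HoxA genes had their brightest probe set below the control on all 3. The count of 14 was the same with the values as deposited, 12 with quantile normalization and 10 with scaling on the poly-A spikes, and the median HoxA change was -0.94, -0.89, -0.74 and -0.70 under the scaling used and these 3. HoxB had 4 of 11 probe sets below on all 3, HoxC 6 of 11 and HoxD 1 of 10. The HoxC count was 3 after quantile normalization and 1 with the spikes, the HoxB count 2 with either, and the HoxD count stayed at 1. Over the 48 members, 25 were below on all 3 and 9 above.

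Some markers of the line changed as well. Of the 11 fibroblast markers tested, 3 fell and 0 rose in NIH3T3 labelled PGC7. Over all tested probe sets 6.32% fell and 6.47% rose. Col1a1, a chain of type I collagen, had 367, 503 and 703, against 23293 in the control (change -5.50 ± 0.43, adjusted p = 0.000271). Postn, a matrix protein, changed by -5.50 ± 0.31 (adjusted p = 6.87e-05) and Lum, a matrix proteoglycan, by -2.69 ± 0.58 (adjusted p = 0.0201). Dcn (0.41 ± 0.20), Vim (0.25 ± 0.13) and Col3a1 (0.12 ± 0.22) changed upward without a call, and the list's median change was -0.64. The summed signal of the list, Col1a1 included, was 130908 to 142004 on the arrays labelled PGC7, against 167528 on the control. Of the 10 melanocyte markers tested 1 was called, Tyrp1, at 1.65 to 4.32, against 46.9, and limma called 0 of 4 epithelial and 0 of 2 blood markers, with 0 and 1 at an unadjusted p under 0.05. The part of these shifts in the HoxA values was not tested.

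The genes beside HoxA were not called in NIH3T3. Of the 10 nearest genes with a tested probe set, 5 on each side, limma called 0, with 1 at an unadjusted p under 0.05, and their median change was -0.02. Over all tested probe sets 12.8% were called in NIH3T3, with a median change of -0.07, so 0 of 10 is close to the background. Skap2, a signalling adaptor gene next to the low-numbered end, changed by 0.23 (adjusted p = 0.256), and Hibadh, an enzyme of valine breakdown beyond the high-numbered end, by -0.08 (adjusted p = 0.714). Among the 10 nearest genes of HoxC limma called 0, with 3 at an unadjusted p under 0.05, and beside HoxB Nfe2l1 rose (0.64) and Copz2 fell (-1.27). Beside HoxD, Chrna1 (3.82), Chn1 (2.43) and Nfe2l2 (1.17) rose. In B16F10, Ttc30b beside HoxD was the only neighbour called (1.17, adjusted p = 0.0387), where 1.19% of all tested probe sets were called.

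**Figure D4:**
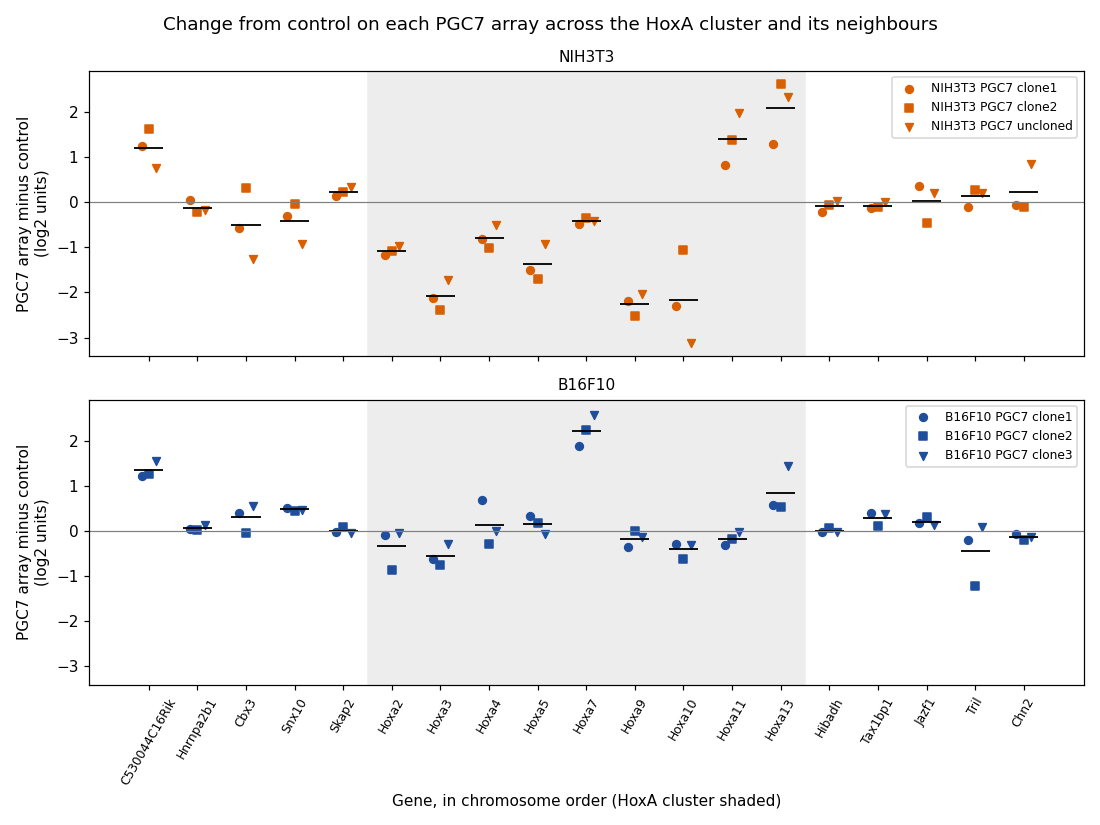
Change from the lone control (log2 units) on each array labelled PGC7 for the 9 HoxA genes (shaded, brightest probe set) and the 5 nearest tested genes on each side, in chromosome order, with NIH3T3 above and B16F10 below. Points are single arrays and black lines their mean. In NIH3T3 all points between Hoxa2 and Hoxa10 lie below 0 and those of Hoxa11 and Hoxa13 above it. In B16F10 the Hoxa7 points stand out at about 2 log2 units.

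The HoxB, HoxC and HoxD genes had smaller or mixed differences in NIH3T3. Hoxc4 was lower on each array labelled PGC7, averaging 163 ± 61.1 against 281 (change -0.81 ± 0.49, adjusted p = 0.314). Hoxd8 was higher on each array by both probe sets, with a change of 0.81 ± 0.40 (adjusted p = 0.226) for 1433638_s_at and 0.35 ± 0.46 (adjusted p = 0.668) for 1431099_at. Hoxd9 differed by 0.01 ± 0.49 (adjusted p = 0.99). The Hoxc6 probe sets disagreed: 1427454_at averaged 73.6 ± 11.6 against 15.02 in the control (change 1.77 ± 0.54, adjusted p = 0.0663), while 1427361_at changed by -0.18 ± 0.35 and 1427362_x_at by 0.00 ± 0.42.

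In B16F10 labelled PGC7, Hoxa7 rose and no other Hox gene was called. Hoxa7 averaged 64.3 ± 17.2 (SD, n = 3), against 6.42 in the control, a change of 2.22 ± 0.34 (adjusted p = 0.0226, range over the alternatives 0.0115 to 0.0729). All 3 clones, at 47.6, 63.3 and 82.0, were above the control, although clones 1 and 2 stayed under the 90th percentile of the other-tissue genes on their arrays (69.3 and 66.2) and clone 3 above it (70.01). The call was kept in 9 of 16 alternatives and lost without B16F10 clone 1 (adjusted p = 0.0501), clone 2 (0.0658) or clone 3 (0.0729), without NIH3T3 clone 1 (0.0571), with no intensity trend (0.0514), with the clone number as a replicate block (0.0722), and with a pseudocount of 32, where the change was 1.31 (adjusted p = 0.058). Of the 23 probe sets, 1 rose and 0 fell in limma's test, and 2 had an unadjusted p under 0.05. Over all tested probe sets 1.19% were called, 0.923% higher and 0.265% lower. With no filter 1 of the 48 rose and 0 fell, against 0.393% called, 0.306% higher and 0.0866% lower.

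The Hox genes with a strong signal in B16F10 were not called against the control. Hoxa10 averaged 835 ± 103, against 1104 (change -0.41 ± 0.64, adjusted p = 0.826). Hoxd13 averaged 553 ± 82.4, against 528 (change 0.06 ± 0.38, adjusted p = 0.971), and Hoxa9 242 ± 31.1, against 272 (change -0.17 ± 0.38, adjusted p = 0.885). Hoxa3 (1427433_s_at) was lower on each clone, at 206 ± 37.4 against 303 (change -0.55 ± 0.32, adjusted p = 0.475). These p-values do not show that the levels were alike, because the SE leaves room for sizeable changes. In HoxA 6 of 16 probe sets were below the control on all 3 clones and 5 above, and over the 48 members 16 were below and 12 above, against 27.9% and 33.2% of all probe sets. With the poly-A spikes 9 HoxA probe sets were below and 3 above, and the median HoxA change was -0.43, against 0.14 under the scaling used. The median change was 0.07 over the 23 that passed, against 0.02 over all tested.

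The change in NIH3T3 minus that in B16F10 was tested directly. Hoxa7 was the only 1 of the 23 probe sets called, with a difference of -2.64 ± 0.47 (adjusted p = 0.0163, range over the alternatives 0.01 to 0.0437), made up of -0.42 in NIH3T3 and 2.22 in B16F10. Of all tested probe sets 6.88% were called, 3.08% higher and 3.8% lower, and 7 of the 23 had an unadjusted p under 0.05. With no filter 1 of the 48 was called lower, against 2.73% of all probe sets called, 1.19% higher and 1.54% lower. The next differences were -2.08 ± 0.54 for Hoxa9 (1455626_at, adjusted p = 0.0575), -1.52 ± 0.42 for Hoxa5 (1448926_at, adjusted p = 0.0698) and -1.53 ± 0.46 for Hoxa3 (1427433_s_at, adjusted p = 0.0855). So the fall of these 3 genes in NIH3T3 was not shown to differ from their change in B16F10. Without the uncloned NIH3T3 array 4 probe sets were called, where 17.5% of all tested probe sets were.

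The proteins that act with or on Hox genes were followed by lists of other genes, each by its brightest probe set. Pbx, Meis and Pknox proteins bind DNA together with Hox proteins. Of the 8 tested, 3 were higher (Pbx2, Meis1 and Meis3) and 3 lower (Pbx3, Meis2 and Pknox2) in NIH3T3 than in B16F10. Over all tested probe sets 42% were higher and 29.6% lower, and 12.8% were called in NIH3T3 labelled PGC7. Meis2 fell in NIH3T3 labelled PGC7, at 456, 416 and 360 against 1037 in the control (change -1.32 ± 0.17, adjusted p = 0.00215), and 0 of the 8 were called in B16F10 by limma (2 at an unadjusted p under 0.05). Its B16F10 values were 1072, 1079 and 1140, against 1519.

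Trithorax and Polycomb genes were counted against the shares called over all tested probe sets, 71.5% between the lines, 12.8% in NIH3T3 labelled PGC7 and 1.19% in B16F10 labelled PGC7. Of 11 Trithorax and MLL complex genes 3 were higher (Men1, Kmt2a and Kdm6b) and 7 lower in NIH3T3 than in B16F10, and limma called 0 of the 11 for PGC7 in NIH3T3 or B16F10, with 1 in each line at an unadjusted p under 0.05. Of 16 Polycomb genes 7 were higher and 5 lower in NIH3T3, among the lower ones Suz12 (-1.74 ± 0.08) and Ezh2 (-1.42 ± 0.10), core subunits of the complex that methylates histone H3. In NIH3T3 labelled PGC7, 3 Polycomb genes rose: Rnf2 (1.02 ± 0.14, adjusted p = 0.00302), Jarid2 (1.00 ± 0.17, adjusted p = 0.00761) and Phc2 (0.95 ± 0.13, adjusted p = 0.00314). Phc1 fell (-0.70 ± 0.16, adjusted p = 0.0228), and limma called 0 in B16F10 (2 at an unadjusted p under 0.05).

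Among 11 tested genes tied to the induction of Hox clusters, mostly of the retinoic acid pathway, 5 were higher and 5 lower in NIH3T3 than in B16F10. Over all tested probe sets 71.5% were called between the lines and 12.8% in NIH3T3 labelled PGC7. Of the 11 genes, 1 rose and 1 fell in NIH3T3 labelled PGC7. Crabp1, a retinoic acid binding protein of the cytoplasm, had 16681, 19987 and 24601, against 5578 in the control (change 1.85 ± 0.23, adjusted p = 0.00187). Cyp26b1, an enzyme that breaks down retinoic acid, had 86.0, 103 and 202, against 499 in the control (change -1.96 ± 0.52, adjusted p = 0.043). In B16F10 limma called 0 of the 11 (2 at an unadjusted p under 0.05). Of 8 tested partners and inhibitors of Hox proteins, 4 were higher and 3 lower in NIH3T3 than in B16F10. The shares over all tested probe sets were 42% and 29.6%. Of the 8 genes, Btg2 fell in NIH3T3 labelled PGC7 (-1.76 ± 0.42) and Btg1 rose in B16F10 labelled PGC7 (1.47 ± 0.14).

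Of 24 tested transcription factors of body position outside the clusters, 14 were higher and 7 lower in NIH3T3, against 42% and 29.6% over all tested probe sets. The limb and skin mesenchyme genes Prrx1 (8.71 ± 0.22) and Twist2 (8.07 ± 0.40) were higher in NIH3T3, and Pax3 (-8.65 ± 0.19), a gene of the neural crest and melanocyte lineage, and Tbx2 (-6.42 ± 0.23) were lower. In NIH3T3 labelled PGC7, Tbx3 (2.08 ± 0.52) and Foxc2 (1.49 ± 0.28) rose, Gli3 (-1.42 ± 0.14) and Shox2 (-0.91 ± 0.18) fell, and in B16F10 limma called 0 (2 at an unadjusted p under 0.05). Of the 8 ParaHox and extended Hox cluster genes 2 were tested: Evx2, next to HoxD, was higher (1.61 ± 0.47) and Gbx2 lower (-2.40 ± 0.35) in NIH3T3 than in B16F10, and limma called neither for PGC7 (1 in NIH3T3 and 0 in B16F10 at an unadjusted p under 0.05).

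Genes reported downstream of Hox proteins were tested for 16 members. Of these, 10 were higher and 5 lower in NIH3T3 than in B16F10, against 42% and 29.6% over all tested probe sets. In NIH3T3 labelled PGC7 6 rose and 0 fell: Itgb3 (3.62 ± 0.76), Fgf2 (1.74 ± 0.48), Epha7 (1.59 ± 0.36), Vegfa (1.32 ± 0.27), Cdkn1a (0.81 ± 0.15) and Plaur (0.76 ± 0.19), where 6.47% of all tested probe sets rose. Vegfa, the endothelial growth factor, also rose in B16F10 labelled PGC7 (1.85 ± 0.27, adjusted p = 0.0194), at 1152, 772 and 1234 against 281. Many of these genes answer to other factors as well, and a link to the Hox values was not tested.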

How the data were processed

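Total RNA of 8 cultures was measured on Affymetrix arrays. The authors deposited 1 linear intensity value for each probe set, computed by MAS5 per the submitters' processing notes, whose settings and version the labels do not state. The deposited NIH3T3 columns had trimmed means (percentiles 2 to 98) of 143 to 189 and the B16F10 columns of 500, so every array was scaled to 500. Detection calls were not used, and the number of arrays limits the precision.

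To each scaled signal 9, about the 25th percentile, was added before log2 was taken. Of 45037 probe sets that are not controls, 25236 passed the filter on low signals. Through the platform annotation 34958 probe sets had 1 symbol, 932 several and 9211 none. Tests used limma 3.58.1 in R 4.3.3: 4 group means were fitted over all 8 arrays with an intensity trend (8.501 degrees of freedom), two-sided, with Benjamini-Hochberg adjustment over all tested probe sets, and an adjusted p under 0.05 was called. The lone controls were assumed to vary like the arrays labelled PGC7, and the clones and the uncloned culture were treated as replicates. The fit was tested on simulated data.

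Values on every array are given for members called in any comparison or reaching a signal of 200. Other genes are named from lists written from textbook knowledge, at most 8 called genes for each list and comparison. The members and lists were chosen with earlier results of these data known. The alternatives were 3 other scalings, pseudocounts of 1 and 32, no filter and a filter at 200, fewer arrays in the fit, no intensity trend, the clone number as a replicate block, and each array labelled PGC7 left out in turn.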

Additional observations from a re-analysis of the deposited data

Results flagged for a closer look

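Hoxa7 changed differently in the lines: the NIH3T3 change minus the B16F10 change was -2.64 ± 0.47 (log2, SE) by limma's test of that difference (adjusted p = 0.0163). The 3 NIH3T3 arrays labelled PGC7 were below their control (328 ± 14.1 against 441), and the 3 B16F10 arrays labelled PGC7 were above theirs (64.3 ± 17.2 against 6.42). The B16F10 signals are close to the 90th percentile of the other-tissue genes, and each line has 1 control array.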

How the results depend on the processing

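Of the 19 calls between the lines, Hoxa5 1443803_x_at alone changed direction where it was tested, to -0.32 (adjusted p = 0.22) with the values as deposited. Some were not tested under every alternative: Hoxc6 1427454_at did not pass the filter as deposited, after quantile normalization or at 200. The Hoxd13 difference was -5.21 and that of Hoxa10 -5.32 as deposited. The number of Hox probe sets called between the lines, 19, was 12 with a signal filter of 200, where fewer were tested, and 18 to 19 with an array left out. The count of 4 in NIH3T3 labelled PGC7 was 1 with the NIH3T3 arrays alone, 2 with no intensity trend, and 3 to 5 with an array left out. The count of 1 in B16F10 labelled PGC7 was 2 with poly-A spike scaling, 0 with a pseudocount of 32, 0 with no intensity trend, and 0 to 1 with an array left out: it was 0 without NIH3T3 clone 1 and without each B16F10 clone. The count of 1 for the difference between the changes was 3 with poly-A spike scaling, 2 with no intensity trend, 4 without the uncloned NIH3T3 array, and 1 to 4 over the arrays left out. The cause of these shifts was not tested. Deviations of the same-numbered clones of NIH3T3 and B16F10 had a correlation of 0.00917 for clone 1 and -0.0972 for clone 2 over 25236 probe sets. With so few arrays this does not show whether same-numbered clones were handled together, which the labels do not say. With the clone number as a replicate block the counts were 19, 3, 0 and 1. The scalings moved the median of all probe sets: for NIH3T3 minus B16F10 it was 0.24, and -1.30 as deposited, -0.11 after quantile normalization and 0.77 with the spikes. For B16F10 labelled PGC7 it was 0.02, and -0.54 with the spikes, and for NIH3T3 -0.07, and 0.25 with the spikes. Low signals limit most HoxB members and the Hoxa7 values of B16F10.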

Other observations

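Probe sets in the Hox clusters that name several genes or an antisense RNA were not members. A probe set of Hoxd3os1, an antisense RNA in HoxD, 1460056_at, had 268, 150 and 392 in NIH3T3 labelled PGC7 (clone 1, clone 2 and uncloned) against 772 in the control, and 41.9, 34.7 and 54.1 in B16F10 labelled PGC7 against 104 in the control. It was lower on all 6 arrays without a call (NIH3T3 change -1.58 ± 0.48, adjusted p = 0.0662, and B16F10 change -1.13 ± 0.48, adjusted p = 0.32, limma). Its second probe set, 1430263_at, changed by -0.21 ± 0.48 in NIH3T3. Hoxd4 and Hoxd3 had 2 shared probe sets. The first, 1450209_at, had 29.6, 25.1 and 32.03 in NIH3T3 labelled PGC7 against 74.9 in the control (change -1.15 ± 0.35, adjusted p = 0.0639). The second, 1421537_at, had 94.7 in the uncloned culture, 41.4 in clone 1 and 76.9 in clone 2 against 159 in the control (change -1.13 ± 0.44, adjusted p = 0.131). Between the lines 1450209_at was lower in NIH3T3 (difference -1.22 ± 0.25, adjusted p = 0.00199), and 1421537_at had a difference of 0.67 ± 0.31 (adjusted p = 0.0812). A probe set shared by Hoxb8 and Hoxb7, 1452493_s_at, had 1.47 to 13.5 over the NIH3T3 arrays and 68.3 to 101 over the B16F10 arrays (difference -2.74 ± 0.40, adjusted p = 0.000282). Hoxa11os, the antisense RNA of Hoxa11, had 6.68 to 13.4 over the NIH3T3 arrays and 42.3 to 77.1 over the B16F10 arrays (probe set 1452400_a_at, difference -1.86 ± 0.35, adjusted p = 0.00131), the direction of Hoxa11 itself.

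Aldh1a1, which makes retinoic acid and was chosen after its values were seen, had 1.26, 4.04 and 1.23 in NIH3T3 labelled PGC7 against 392 in the control, and did not pass the filter on low signals.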
